A study of Homo sapiens with 8 samples.

Results

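The 10 genes described here are KITLG, which encodes the ligand of the receptor KIT, and 9 receptor tyrosine kinases: KIT, KDR, FGFR1, FGFR2, FGFR3, FGFR4, IGF1R, INSR and ERBB3. They were taken by name from the 19305 transcript accessions counted in each library, and all 10 passed the filter on low counts. They were chosen with values from the H9 stem cell line in view, where KITLG and KDR were higher with an shRNA against eIF2A. The H9 knockdown values are therefore given as a description, with no p-value for a member; how many passed the threshold in the fit over all genes is stated only as a count that supports nothing.

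Polyadenylated RNA was sequenced in 8 libraries, 2 in each of 4 groups. HEK293T, a human embryonic kidney line, was given either an siRNA against eIF2A or a control siRNA, and all 4 of its libraries came from cells under sodium arsenite, an inducer of oxidative stress. H9 cells, which are human embryonic stem cells, expressed an eIF2A shRNA or a control one, and their labels name no arsenite. eIF2A is an initiation factor that can deliver initiator tRNA to the ribosome, and the series set out to compare cells with and without it. The labels do not give the siRNA or shRNA sequences, the time after knockdown or whether the H9 lines are clones. Nor do they say whether replicate libraries are from separate cultures, and the p-values reflect only the spread among these libraries, which may be technical. HEK293T without arsenite and H9 with it are not analysed here, so a difference between the lines cannot be told apart from one due to arsenite or to siRNA against shRNA.

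Receptor tyrosine kinases are membrane proteins that pair up when a ligand binds outside the cell and then phosphorylate each other inside it. Adaptor proteins dock on the phosphorylated tails and start the RAS-ERK and PI3K-AKT cascades, and feedback inhibitors such as the Sprouty proteins and the phosphatase DUSP6 dampen the signal. FGF2 acting through FGF receptors, together with insulin and insulin-like growth factor signalling, helps to keep human pluripotent stem cells undifferentiated in culture. KIT and its ligand sustain germ cells, melanocytes and blood progenitors, and KDR is the main VEGF receptor of endothelial cells and an early mesoderm marker.

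The libraries held 21837052 to 32318668 counts in genes. EIF2A itself was at 17.5 and 18.3 CPM (counts scaled by library size with TMM factors) in the HEK293T controls and at 5.58 and 5.98 with siRNA, and at 15.8 and 14.8 in the H9 controls and 5.03 and 4.67 with shRNA. Its lower level in both knockdowns fits the labels. All 8 pluripotency markers were above 1 CPM in H9, and 2 of them in HEK293T (DNMT3B and SOX2). Their sum in H9 was 5950 and 5970 CPM in controls and 5560 and 5650 with shRNA, mostly LIN28A and DNMT3B. Single genes went both ways with shRNA. POU5F1 went from 162 and 195 to 141 and 114 CPM, and L1TD1 from 73.7 and 70.6 to 148 and 142 CPM. The 5 HEK293T markers were all above 1 CPM in HEK293T, and 3 of them in H9. Among these, INA was higher in H9 controls (10.6 CPM) than in HEK293T controls (2.09 CPM). In bulk RNA, fewer cells of a type and less RNA per cell cannot be told apart. The H9 comparison carried a trend over all genes: transcripts of low GC content and greater length were higher with shRNA (Spearman rho with GC of -0.68 and with length of 0.45 across 14489 genes, which are not independent replicates). In HEK293T both values were -0.10. The part of that trend in each result was not tested, so values with it removed stand beside the H9 values.

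The 250 bases before the start sites of KITLG, KIT and KDR are shown because KITLG and KDR led the choice of genes and KIT is the receptor of KITLG. They are RefSeq sequences on GRCh38.p14, which is not the build of the counts (hg19), and run 5′ to 3′ on the gene's strand. Capitals mark TATAAA, the core of a TATA box, and GGGCGG, the core of a GC box, on either strand (CCGCCC is GGGCGG read on the other strand).
KITLG: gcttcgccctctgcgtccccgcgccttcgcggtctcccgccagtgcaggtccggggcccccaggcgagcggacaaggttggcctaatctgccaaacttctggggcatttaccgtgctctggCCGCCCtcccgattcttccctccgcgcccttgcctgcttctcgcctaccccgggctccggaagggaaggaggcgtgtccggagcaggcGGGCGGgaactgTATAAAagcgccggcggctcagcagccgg
KIT: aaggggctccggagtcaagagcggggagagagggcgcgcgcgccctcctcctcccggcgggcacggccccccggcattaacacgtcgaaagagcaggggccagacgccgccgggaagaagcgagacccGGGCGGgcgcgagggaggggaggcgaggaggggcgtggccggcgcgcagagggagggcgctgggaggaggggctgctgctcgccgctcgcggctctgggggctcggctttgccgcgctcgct
KDR: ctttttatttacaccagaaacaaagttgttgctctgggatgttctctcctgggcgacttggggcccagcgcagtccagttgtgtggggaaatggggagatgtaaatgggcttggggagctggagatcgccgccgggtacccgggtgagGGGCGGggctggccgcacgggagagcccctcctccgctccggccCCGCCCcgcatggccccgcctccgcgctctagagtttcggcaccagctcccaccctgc
KITLG lies on the minus strand at chr12:88580472-88580721, KIT on the plus strand at chr4:54657707-54657956 and KDR on the minus strand at chr4:55125596-55125845. The KITLG window was 69.2% GC and held 1 TATAAA, which began 29 bases before the start site, and 2 GGGCGG. The KIT window was 76.4% GC with 1 GGGCGG, and the KDR window was 65.2% GC with 2 GGGCGG. Neither of these held TATAAA, and none of the 3 held CCAAT. Among 27305 promoters of the same length, 11.1% held TATAAA, 42.3% GGGCGG and 33.0% CCAAT on either strand. A match describes these letters only. Of the 10 genes, 8 had a promoter in the table.

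KITLG, the secreted or membrane-bound ligand of KIT, was rare in H9 controls and low in HEK293T. The H9 controls held 0.326 and 0.197 CPM (7 and 4 reads), and the H9 shRNA libraries 2.47 and 1.87 CPM (64 and 44 reads). Both shRNA libraries lay above both controls, an 8.14-fold difference (log2 fold change 3.03 ± 0.37 SE, n = 2 per group). The size rests on few control reads: without H9 control replicate 1 the log2 value was 3.44, and without replicate 2 it was 2.72. The KITLG transcript is 35.3% GC and 5441 bases long, and once the GC and length trend was taken out its log2 value was 2.08. In HEK293T, KITLG was at 1.74 and 1.41 CPM in controls and at 1.5 and 1.56 CPM with siRNA. These groups overlapped, and the log2 fold change was -0.03 ± 0.24 (edgeR quasi-likelihood F test, adjusted p = 0.973).

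KIT, the receptor of KITLG, was a low-count gene in every group. The H9 controls held 4.24 and 3.41 CPM and the shRNA libraries 7.62 and 7.21 CPM, with no overlap, a 1.93-fold difference (log2 0.95 ± 0.15). The trend over all genes had a value of 0.87 for a transcript of its GC content and length (42.6% and 5186 bases), and with it removed the log2 value of KIT was 0.08. In HEK293T, KIT was at 1.39 and 1.92 CPM in controls and 1.77 and 1.80 CPM with siRNA, and the groups overlapped (log2 fold change 0.07 ± 0.22, edgeR adjusted p = 0.862). Per kilobase of transcript, the level of KIT was 13.6 and 18.1 times that of KITLG in the H9 controls, 3.23 and 4.05 times in the H9 shRNA libraries, 0.839 and 1.42 times in the HEK293T controls and 1.24 and 1.21 times with siRNA. The receptor thus exceeded its ligand in all 4 H9 libraries, by less with shRNA, and in HEK293T their levels were close.

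KDR, the VEGF receptor, was abundant in H9 and nearly absent from HEK293T. It was at 29 and 29 CPM in H9 controls and at 68.6 and 64.4 CPM with shRNA, a 2.30-fold difference (log2 1.20 ± 0.067). Its groups did not overlap, and with the trend removed the log2 value was 0.62. In HEK293T, 10 and 9 reads in controls (0.436 and 0.283 CPM) stood against 6 and 0 reads with siRNA (0.204 and 0 CPM, where a count of 0 allows up to 0.104 CPM from counting error alone). The log2 fold change was -1.71 ± 0.66 (edgeR adjusted p = 0.0498). That call rested on single libraries: without siRNA replicate 2 the value was -0.75 (edgeR adjusted p = 0.453), and without control replicate 1 it was -1.42 (adjusted p = 0.184). Trend removal gave a HEK293T value of -1.70 (adjusted p = 0.0517).

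KDR also marks endothelial and early mesodermal cells, so those markers stand beside it. The summed level of 9 endothelial and haemogenic markers was 28.6 and 27.9 CPM in H9 controls and 44.1 and 42.6 CPM with shRNA. Its genes did not move one way. The VEGF receptor FLT1, the most abundant of them, went from 13.8 and 12.4 to 28.2 and 27.7 CPM (log2 fold change 1.09, and 0.31 with the trend removed), and the angiopoietin receptor TEK from 3.92 and 2.76 to 7.31 and 7.63 CPM (1.15, and 0.50). TIE1, a receptor kinase related to TEK, was lower, from 5.36 and 7.06 to 3.32 and 2.84 CPM (-1.0, and -0.78), as was the junction protein CDH5, from 2.10 and 2.07 to 1.12 and 1.02 CPM (-0.96, and -0.89). VWF was at 1.82 and 1.83 CPM in controls and 2.09 and 1.57 with shRNA, and the groups overlapped. PECAM1, which defines endothelium, was at 0 and 0 CPM in controls and 0.0387 and 0.0424 with shRNA, and ESAM, TAL1 and CD34 were each under 1 CPM in both controls. The third VEGF receptor, FLT4, which is not on that list and is named after its values were seen, was at 35.2 and 33.6 CPM in H9 controls and 24.7 and 24.1 with shRNA (log2 fold change -0.50, and -0.42 with the trend removed). The summed level of 6 mesoderm markers was 5.55 and 6.37 CPM in controls and 5.84 and 4.50 CPM with shRNA. Of 9 mast cell and melanocyte markers, the other cells known for KIT, 6 were at 0 counts in both H9 controls and only PMEL passed 1 CPM, and their sum was 302 and 312 CPM in controls and 196 and 190 with shRNA. The part of any of these cell types in the KDR and KIT values was not tested.

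**Figure D1:**
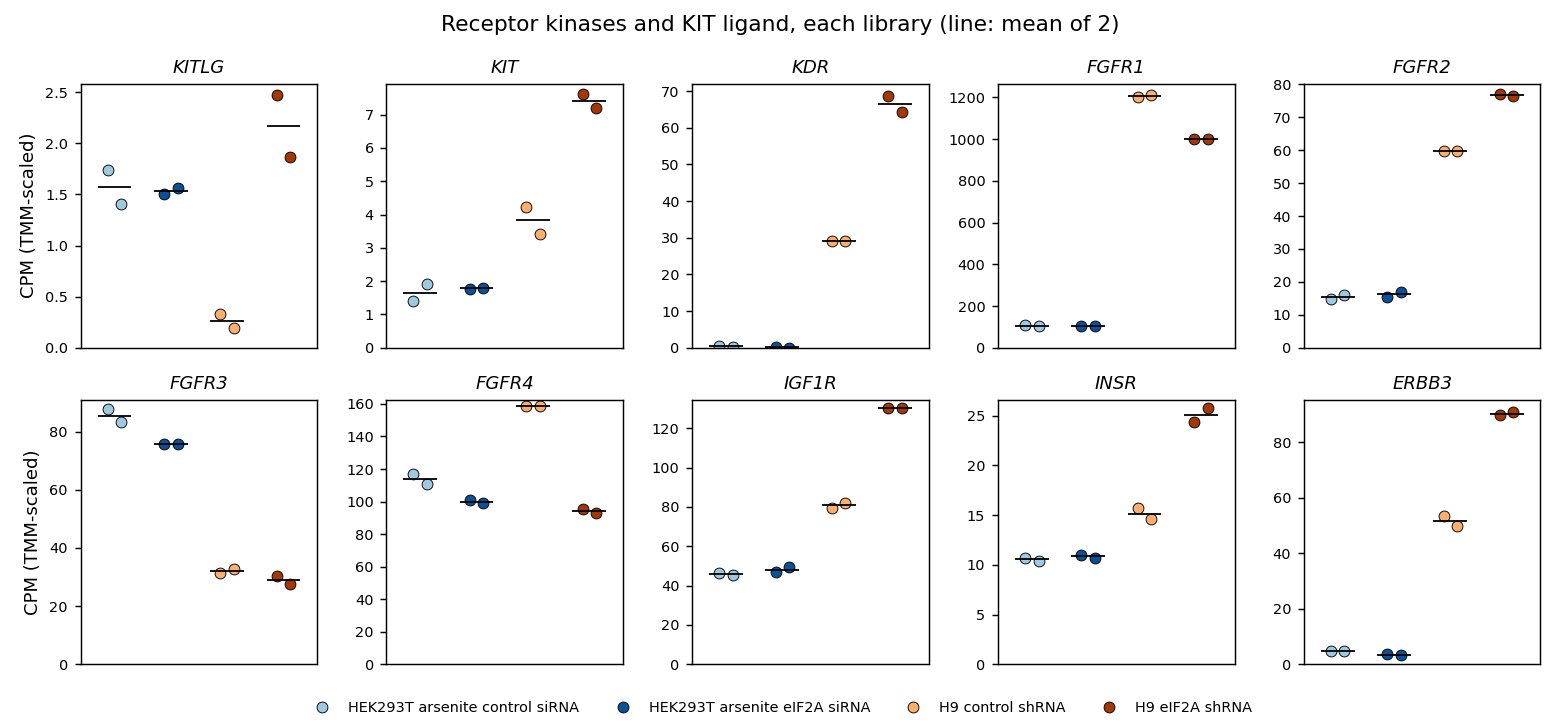
CPM of each of the 10 genes (linear axes from 0, one panel per gene) in the 8 libraries, with 1 point per library and a line at the mean of the 2. KITLG sits at 0.326 and 0.197 CPM in H9 controls against 2.47 and 1.87 with shRNA, and FGFR1 reaches 1200 and 1210 CPM in H9 controls against 109 and 104 in HEK293T controls.

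The 4 FGF receptors, which bind fibroblast growth factors with heparan sulphate, did not move together in H9. FGFR1 was at 1200 and 1210 CPM in controls and at 1000 and 1000 CPM with shRNA, a level 0.833 of control (log2 -0.26 ± 0.030, and -0.09 with the trend removed). FGFR4 was at 159 and 159 CPM in controls and 95.5 and 92.8 CPM with shRNA, the lowest level relative to control among the members (0.591 of control, log2 -0.76 ± 0.040, and -0.46 with the trend removed). FGFR2 was higher, from 59.7 and 59.6 to 77.1 and 76.5 CPM (log2 0.36 ± 0.049, and 0.52 with the trend removed). FGFR3 was at 31.5 and 32.7 CPM in controls and 30.5 and 27.5 CPM with shRNA (log2 -0.14 ± 0.063, and 0.05 with the trend removed, so its sign depended on the trend). For each of the 4 genes the shRNA libraries did not overlap the controls, and only for FGFR3 was the gap smaller than the spread between replicates. The share of all genes whose groups did not overlap was not counted. Here and for the other genes, non-overlap is therefore only a description of these libraries. DESeq2's size factors moved the median of all genes in H9 from 0.02 to -0.13, and with them FGFR1 was at -0.42, FGFR2 at 0.20, FGFR3 at -0.30 and FGFR4 at -0.92. Upper-quartile scaling moved that median to 0.095, and these 4 genes were then at -0.19, 0.43, -0.07 and -0.69. Under the 2 scalings, in that order, KITLG was at 2.87 and 3.10, KIT at 0.79 and 1.02 and KDR at 1.04 and 1.27. IGF1R was at 0.53 and 0.76, INSR at 0.57 and 0.80 and ERBB3 at 0.65 and 0.88.

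In HEK293T under arsenite, 2 FGF receptors fell slightly with eIF2A siRNA. FGFR4 was at 117 and 111 CPM in controls and 101 and 98.9 CPM with siRNA (log2 fold change -0.19 ± 0.039, edgeR adjusted p = 3e-04). FGFR3 was at 87.8 and 83.2 CPM in controls and 75.7 and 75.7 CPM with siRNA (-0.17 ± 0.046, edgeR adjusted p = 0.00363). Neither group pair overlapped. After trend removal FGFR4 was at -0.12 and still called (adjusted p = 0.012), while FGFR3 was at -0.09 and not called (adjusted p = 0.12). FGFR1 was at 109 and 104 CPM in controls and 104 and 106 CPM with siRNA, and FGFR2 at 14.9 and 16.1 against 15.5 and 16.9 CPM. Both overlapped, with log2 fold changes of -0.02 ± 0.036 and 0.05 ± 0.074 (edgeR adjusted p = 0.785 and 0.648).

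Per kilobase of transcript, the 2 lines differed in which FGF receptor led. FGFR1 made up 78.7 and 78.8% of the summed FGFR1 to FGFR4 level in H9 controls and 79.3 and 79.8% with shRNA. In HEK293T its share was 29.4 and 29.3% in controls and 31.2 and 31.7% with siRNA, and FGFR4 held the largest share there, at 42.2 and 41.7% in controls and 40.4 and 39.5% with siRNA. FGFR4 held 13.9 and 13.8% in H9 controls and 10.1 and 9.82% with shRNA. FGFR3 held 22.9 and 22.8% in HEK293T controls but 2.0 and 2.06% in H9 controls, and FGFR2 held 5.46 and 6.19% in HEK293T controls and 5.33 and 5.27% in H9 controls. With the longest transcript of each gene as its length, FGFR1 held 22.9 and 22.8% in HEK293T controls and 73.4 and 73.5% in H9 controls, and in HEK293T FGFR3 then lay above FGFR1.

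IGF1R and INSR, the receptors of insulin-like growth factors and insulin, were both higher in H9 with shRNA. IGF1R was at 79.4 and 82.2 CPM in controls and 130 and 130 CPM with shRNA (1.61-fold, log2 0.69 ± 0.043). INSR was at 15.7 and 14.6 CPM in controls and 24.4 and 25.8 CPM with shRNA (1.65-fold, log2 0.73 ± 0.079). No groups overlapped for either gene. With the trend removed IGF1R was at 0.32 and INSR, whose transcript is 55.3% GC, at 0.75, so INSR hardly moved with it. That value used the counted INSR transcript of 4721 bases. The longest has 8954 bases, and the trend was not refitted with it. In HEK293T, IGF1R was at 46.2 and 45.6 CPM in controls and 47.0 and 49.3 CPM with siRNA, a log2 fold change of 0.07 ± 0.048 that did not pass the test (edgeR adjusted p = 0.312) but did with the trend removed (0.16, adjusted p = 0.012). INSR was at 10.7 and 10.4 CPM in controls and 11 and 10.7 CPM with siRNA (0.05 ± 0.090, edgeR adjusted p = 0.764). Per kilobase, IGF1R was 1.95 and 2.17 times INSR in H9 controls, 2.06 and 1.94 times with shRNA, and 1.65 to 1.77 times in the 4 HEK293T libraries. Taking each gene's longest transcript as its length gave ratios of 3.13 to 3.37 in HEK293T and 3.67 to 4.12 in H9.

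ERBB3, a neuregulin receptor of the EGF receptor family with little kinase activity of its own, differed from control in opposite directions in the 2 lines. In H9 it was at 53.4 and 49.8 CPM in controls and 89.8 and 90.8 CPM with shRNA (1.75-fold, log2 0.81 ± 0.050, and 0.59 with the trend removed). In HEK293T it was at 4.75 and 4.71 CPM in controls and 3.64 and 3.21 CPM with siRNA. It fell there by 0.46 ± 0.13 on the log2 scale (edgeR adjusted p = 0.00759), and neither line's groups overlapped. Without HEK293T siRNA replicate 2 the value was -0.38 and no longer called (edgeR adjusted p = 0.0986). After trend removal it was -0.42 (adjusted p = 0.016).

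Counted together, 4 of the 10 genes passed the test in HEK293T (KDR, FGFR3, FGFR4 and ERBB3), all lower, and the median log2 fold change of the 10 was -0.02. None was called higher by edgeR, DESeq2 or limma-voom, and 0 were higher at an unadjusted p under 0.05. Of the 14565 genes tested there, 28.7% were called, 14.1% higher and 14.7% lower, with a median of -0.003. Without siRNA replicate 2, only 2 of the 10 were called (FGFR3 and FGFR4). Once the trend was removed, 1 was higher (IGF1R) and 2 were lower (FGFR4 and ERBB3), beside 2137 higher and 1895 lower of all genes tested. Before trend removal the members' share lay above the 28.7% of all genes. It comes from only 10 genes chosen by name and changed with 1 library. Fewer of all genes were also called without siRNA replicate 2, so the members' share is not read as particular to them. In H9, 7 of the 10 were called higher and 3 lower with a median of 0.71, where 71.3% of all genes were called, 37.0% higher and 34.3% lower, with a median of 0.02 and 10th and 90th percentiles of -0.58 and 1.25. Since the choice of genes used that comparison, nothing is read from the count. With the trend removed, 6 were called higher and 2 lower with a median of 0.42, and KIT and FGFR3 were not called. Of all genes tested, 3142 were then higher and 4087 lower, with a median of -0.012.

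**Figure D2:**
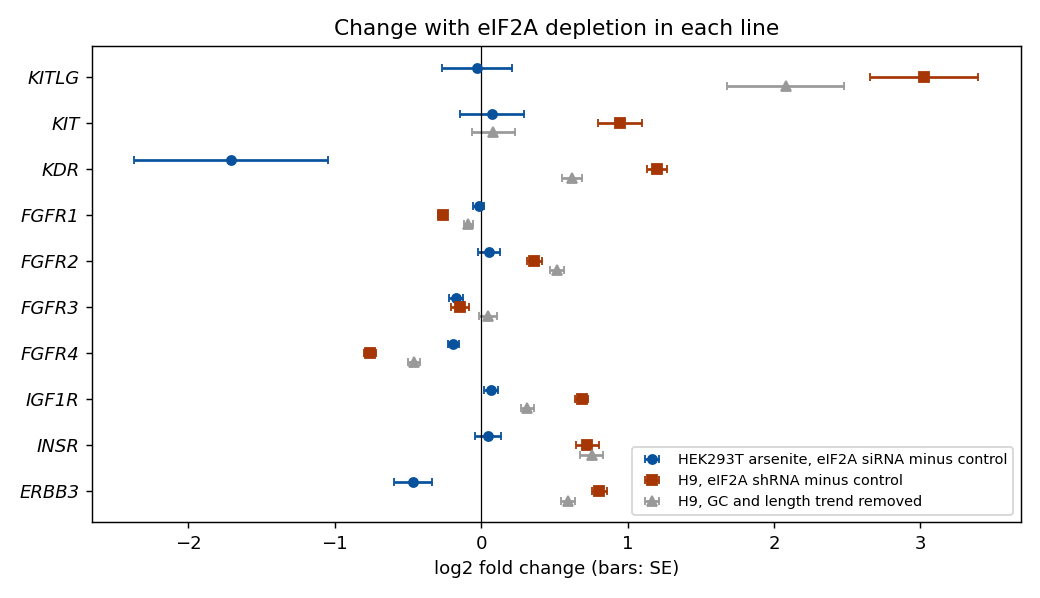
Log2 fold change (bars: SE) of each gene with eIF2A depletion in HEK293T under arsenite (circles), in H9 (squares) and in H9 with the GC and length trend removed (triangles). KITLG stands at 3.03 in H9 as measured and 2.08 with the trend removed, KIT at 0.95 and 0.08, and the HEK293T values other than KDR and ERBB3 lie between -0.19 and 0.07.

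**Figure D3:**
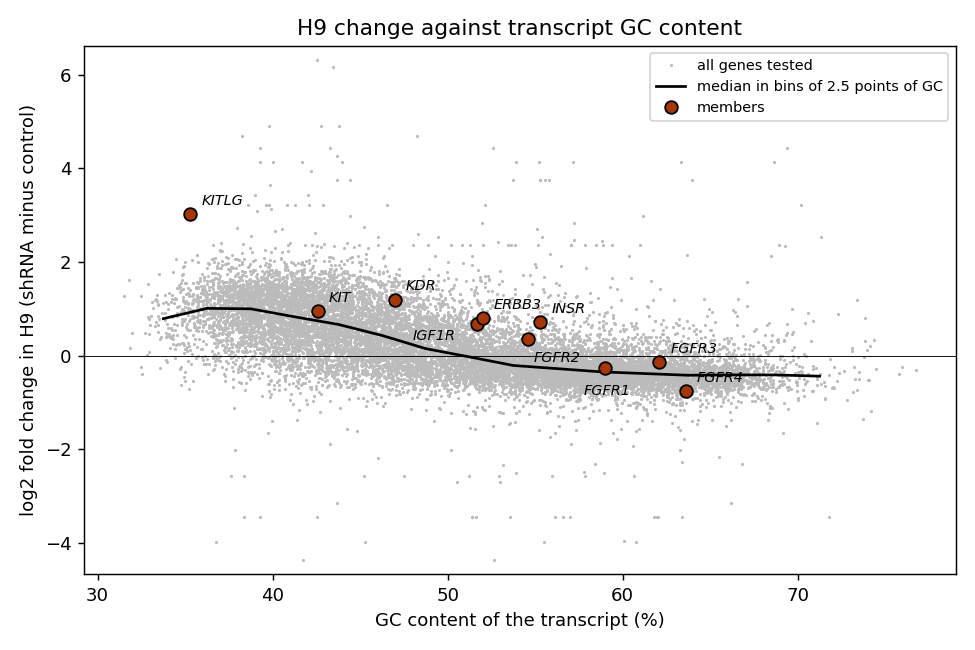
H9 log2 fold change (shRNA minus control) against the GC content of the transcript in percent for the genes tested (grey points), with the median in bins of 2.5 points of GC (black line) and the 10 genes (coloured points). KITLG at 35.3% GC lies above the line, KIT at 42.6% GC lies close to it, and FGFR4 at 63.6% GC lies below it.

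The levels in the 2 control groups differed for all 10 genes in the fit, 8 higher and 2 lower in H9 with a median log2 difference of 0.996. Of all genes tested, 83.5% differed, 42.3% higher and 41.2% lower in H9, so a call is the usual outcome in this comparison. KITLG (log2 difference -2.54 ± 0.40) and KDR (6.36 ± 0.17, 82.3-fold) were chosen on values that include the H9 controls, and no p is given for them. FGFR1 was 11.4-fold higher in H9 (log2 3.51 ± 0.035, edgeR adjusted p = 6.15e-41) and ERBB3 10.9-fold higher (3.45 ± 0.080, edgeR adjusted p = 1.27e-29). FGFR2 was 3.83-fold, KIT 2.26-fold and IGF1R 1.76-fold higher (log2 1.94 ± 0.062, 1.18 ± 0.20 and 0.82 ± 0.047, edgeR adjusted p = 2.16e-25, 1.81e-06 and 1.27e-17). FGFR3 was 2.66-fold lower in H9 (log2 -1.41 ± 0.054, edgeR adjusted p = 5.44e-23). These 6 genes kept their direction and their call with the GC and length trend of this comparison removed, with IGF1R at 0.22 and FGFR3 at -2.17. FGFR4 (log2 0.49 ± 0.039, edgeR adjusted p = 1.16e-13) turned to -0.12 with the trend removed, and INSR (0.53 ± 0.090, edgeR adjusted p = 2.36e-06) fell to 0.03 and was no longer called (adjusted p = 0.74).

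Ordered by level per kilobase, H9 controls ran from FGFR1 at 290 CPM per kilobase through FGFR4 (51.1), FGFR2 (19.5), ERBB3 (8.72), FGFR3 (7.47), IGF1R (6.60), KDR (4.78), INSR (3.21) and KIT (0.738) to KITLG (0.0481 ± 0.017 SD, n = 2). With shRNA, KDR (11 ± 0.49 SD) passed IGF1R (10.6 ± 0.029 SD) by less than its spread, KITLG at 0.399 remained lowest, and FGFR1 at 241 remained highest. HEK293T controls ran from FGFR4 (36.5) through FGFR1 (25.6), FGFR3 (19.9), FGFR2 (5.07), IGF1R (3.75), INSR (2.23) and ERBB3 (0.799) to KIT (0.319 ± 0.071 SD), KITLG (0.290 ± 0.043 SD) and KDR (0.0593). KIT and KITLG, neighbours in that order, did not differ beyond their spread. With siRNA the order was the same, from FGFR4 at 32.0 to KDR at 0.0168 CPM per kilobase.

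**Figure D4:**
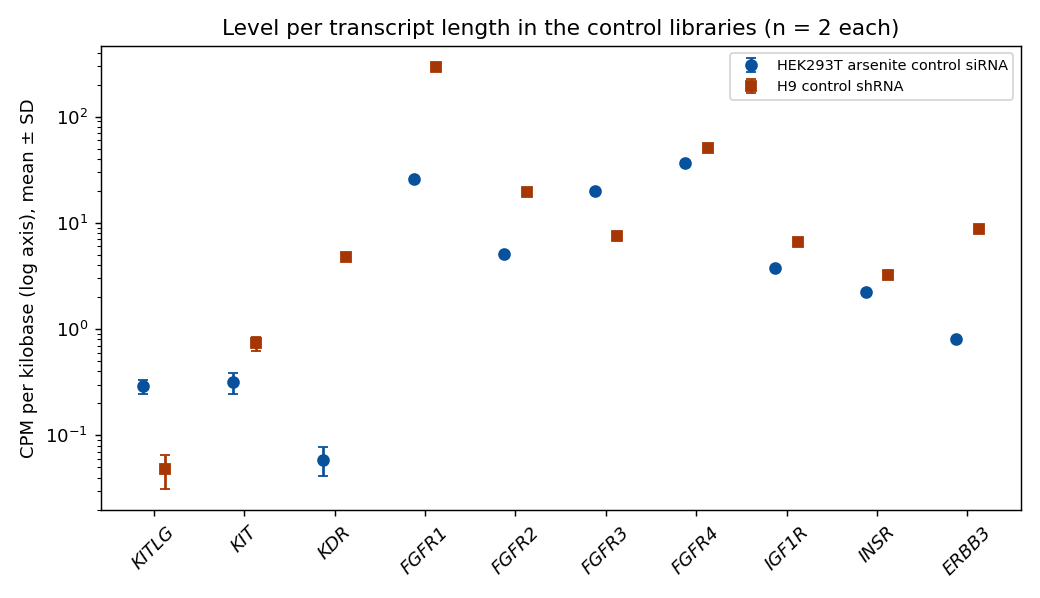
Level per kilobase of transcript (CPM per kilobase, log axis, mean ± SD of 2 libraries) of the 10 genes in HEK293T arsenite controls (circles) and H9 controls (squares). FGFR1 stands at 25.6 in HEK293T and 290 in H9, KDR at 0.0593 and 4.78, and KITLG at 0.290 and 0.0481.

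The genes whose profile over the 8 libraries was most like that of KITLG were USP53, IL6ST and CCPG1, with root mean square differences of 0.27, 0.30 and 0.33 on the log2 scale after centring each gene. Their H9 log2 fold changes were 2.23, 2.07 and 2.0. Most like KIT were CTSV, CENPU and ARHGAP35, at 0.11, 0.11 and 0.12, with H9 values of 0.96, 0.89 and 0.88. The nearest to KDR were PTN, WWC3 and HIF3A at 0.56, 0.62 and 0.65, which is not close, and their H9 values were 0.14, 0.50 and -0.41. These likenesses are descriptions over 8 libraries in which the difference between the lines is large.

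Around these receptors, 167 other genes of the pathway were followed in 6 lists, of which 149 passed the filter. In HEK293T, 14 of the 149 were called higher and 26 lower, with a median log2 fold change of -0.02, and in H9, 60 were higher and 49 lower, with a median of 0.07 (36 and 40 with the trend removed, median 0.00). Over all genes tested 28.7% were called in HEK293T and 71.3% in H9, shares close to those of the pathway genes. With the trend removed, 3142 of the 14565 genes tested were called higher in H9 and 4087 lower. The HEK293T calls (40) were fewer with DESeq2, which called 23. Over all genes too, DESeq2 called fewer, 2742 of the 11176 it gave an adjusted p against 4182 of 14565 with edgeR.

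Over all genes tested in HEK293T, 14.1% were called higher and 14.7% lower. The list counts that follow stand beside these shares and are not read as patterns of a list. Among the other receptor tyrosine kinases in HEK293T, 6 of 44 tested fell and 2 rose. The ephrin receptor EPHA3 fell from 3.08 to 1.42 CPM (log2 fold change -1.11 ± 0.22, edgeR adjusted p = 0.000164), TYRO3, a receptor that recognises dying cells, from 152 to 114 CPM (-0.42 ± 0.036), the lymphatic VEGF receptor FLT4 from 126 to 99.7 CPM (-0.34 ± 0.040), and LTK from 6.52 to 4.83 CPM (-0.44 ± 0.14). The 2 that rose, named after their values were seen, were RYK (0.23) and LMTK3 (0.31). Of 16 tested ligands of the 9 receptors, VEGFA, the ligand of KDR, fell from 107 to 72.7 CPM (-0.56 ± 0.047, edgeR adjusted p = 3.61e-11), the neuregulin NRG2 fell from 11.2 to 9.12 CPM (-0.29 ± 0.096), and 1 rose: FGF22, named after its values were seen, from 1 and 3 reads to 9 and 14 (2.36 ± 0.73, edgeR adjusted p = 0.0132). Of 21 co-receptors and ligand-binding proteins, 5 fell and 3 rose. IGFBP5 (-0.37) and IGFBP2 (-0.27), which bind insulin-like growth factors, the semaphorin and VEGF co-receptor NRP2 (-0.27) and the decoy receptor FGFRL1 (-0.22) fell. The others, named after their values were seen, were the heparan sulphate proteoglycans GPC1 (-0.18), SDC2 (0.19), SDC4 (0.16) and SDC1 (0.15). Of 33 adaptors and kinases, 10 fell and 3 rose: the PI3K regulatory subunits PIK3R1 (-0.61) and PIK3R2 (-0.43), the adaptor GAB2 (-0.32) and the phospholipase PLCG1 (-0.30) were among those that fell, and GRB2 (0.17) and NRAS (0.23), named after their values were seen, were among those that rose. Of 23 feedback inhibitors, 4 rose and none fell: the phosphatase PTPN1 (0.25), SPRY2 (0.24), the EGF receptor inhibitor ERRFI1 (0.21) and the adaptor GRB10 (0.13). At an unadjusted p under 0.05 edgeR gave 2 lower feedback genes, and DESeq2 and limma-voom called 0 lower. Of the 4 that rose, DESeq2 did not call SPRY2 (adjusted p = 0.0644), ERRFI1 (0.128) or GRB10 (0.0735). Of 12 genes that receptors induce through ERK, EGR1 (-0.64, from 2160 to 1390 CPM), FOS (-0.28) and MYC (-0.21) fell and the cyclin CCND1 rose (0.21). DESeq2 also did not call RYK (adjusted p = 0.136), LMTK3 (0.109), NRG2 (0.198), SDC1 (0.105), SDC4 (0.0576) or GAB2 (0.0858). With the GC and length trend removed, edgeR did not call RYK (adjusted p = 0.124), NRG2 (0.0716), SDC4 (0.0652), GPC1 (0.101), GAB2 (0.0604), PIK3R1 (0.0655) or ERRFI1 (0.122). Several calls rested on single libraries. Without control replicate 1, PIK3R1 (edgeR adjusted p = 0.141), LMTK3 (0.154) and FGF22 (0.0664) were not called. Without control replicate 2, the same held for PIK3R1 (edgeR adjusted p = 0.0786), LMTK3 (0.051), LTK (0.079), RYK (0.22), NRG2 (0.104), GAB2 (0.168), SDC1 (0.173), SDC4 (0.0858), SPRY2 (0.15), ERRFI1 (0.203) and GRB10 (0.0828). Without siRNA replicate 1 it held for PIK3R1 (edgeR adjusted p = 0.0818), LMTK3 (0.291), RYK (0.182), NRG2 (0.125), GAB2 (0.133), SDC1 (0.0945), SDC4 (0.109) and ERRFI1 (0.0741), and without siRNA replicate 2 for PIK3R1 (0.217), LTK (0.283), NRG2 (0.059), FGF22 (0.133), GPC1 (0.0967), SDC1 (0.139), SPRY2 (0.101), ERRFI1 (0.107) and GRB10 (0.188).

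In H9, 15 of the 44 other receptor tyrosine kinases rose and 13 fell, 14 and 9 with the trend removed. Over all genes tested, 37.0% were called higher and 34.3% lower, so the list counts here are descriptions only. EPHA4 rose from 4.47 to 11.4 CPM (log2 fold change 1.34 ± 0.13, edgeR adjusted p = 6.42e-11), the WNT5A receptor ROR1 from 20.8 to 51.4 CPM (1.30 ± 0.070), the hepatocyte growth factor receptor MET from 2.41 to 5.51 CPM (1.19 ± 0.17) and EPHA7 from 0.506 to 1.67 CPM (1.73 ± 0.33). With the trend removed these were 0.57, 0.49, 0.49 and 0.68, and EPHA7 was not called. Of the 16 ligands, 1 rose and 2 fell. FGF2, the factor added to stem cell medium, rose from 14.3 to 28.8 CPM (1.01 ± 0.086) but was at -0.05 with the trend removed. FGF19 was lower (-0.73 ± 0.17, and -0.39 and not called with the trend removed), as was NRG2 (-0.58 ± 0.26, edgeR adjusted p = 0.0434), whose call was lost with any 1 H9 library left out (adjusted p = 0.0841 without control replicate 1, 0.134 without control replicate 2, 0.0691 without shRNA replicate 1 and 0.171 without shRNA replicate 2). Among 21 co-receptors, 7 rose and 10 fell: the glypican GPC6 was at 1.26 and the VEGF co-receptor NRP1 at 0.75 (0.27 and -0.01 with the trend removed, neither called), and the proteoglycans GPC2 (-0.73) and SDC2 (-0.66) fell (-0.37 and -1.32).

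All 33 adaptors and kinases were called in H9, 19 higher and 14 lower, where 71.3% of all genes were called. With the trend removed 8 were higher and 11 lower, beside 3142 higher and 4087 lower of all 14565 genes tested. PIK3CA, the catalytic PI3K subunit, was at 1.73, its partner PIK3R1 at 1.49, the RAS exchange factor SOS1 at 1.55 and the phosphatase PTPN11 at 1.53. With the trend removed SOS1 (0.44) and PTPN11 (0.59) were still called, and PIK3CA (0.66) and PIK3R1 (0.44) were not. Of 23 feedback inhibitors, 12 rose and 6 fell, and with the trend removed 6 rose and 10 fell. The RAS GTPase activators NF1 (1.74) and RASA1 (1.37) and the receptor inhibitor LRIG3 (1.19) were among those that rose, and these 3 were also called with the trend removed (0.64, 0.98 and 0.74). Of the 12 genes induced through ERK, 6 rose and 4 fell. CCND1 rose from 35.7 to 97.3 CPM (1.45 ± 0.048, edgeR adjusted p = 3.54e-23, and 1.24 with the trend removed) and the secreted peptide precursor VGF from 20.7 to 38.7 CPM (0.90 ± 0.078, and 1.16). ETV1 was at 1.10 as measured and 0.04 with the trend removed. EGR1 fell (-0.71, and -0.53 with the trend removed). The other 3 lower genes, named after their values were seen, were ETV4 (-0.54), FOS (-0.40) and MYC (-0.16). FOS (-0.24, edgeR adjusted p = 0.136) and MYC (0.04, adjusted p = 0.502) were not called with the trend removed. FOS was not called without control replicate 1 (-0.28, edgeR adjusted p = 0.141) or without shRNA replicate 1 (-0.33, adjusted p = 0.0661), and MYC was not called without control replicate 2 (-0.13, adjusted p = 0.0776).

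**Figure D5:**
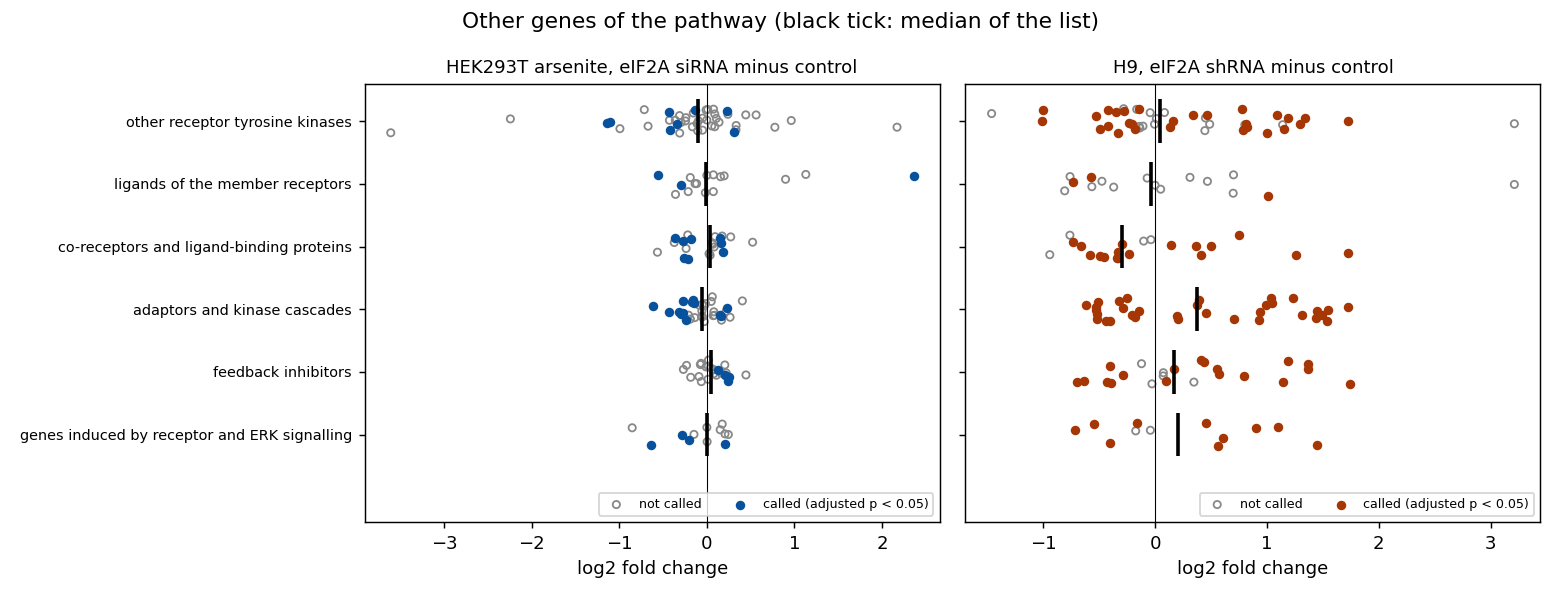
Log2 fold change with eIF2A depletion of the 149 tested pathway genes in 6 lists, in HEK293T under arsenite (left) and H9 (right); filled points passed the test, open points did not, vertical positions within a list are spread at random, and the black tick is the list's median. In HEK293T the list medians lie between -0.10 and 0.04, and in H9 between -0.30 (co-receptors) and 0.38 (adaptors and kinase cascades).

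Between the control groups, 88 of the 149 pathway genes were higher and 51 lower in H9, with a median log2 difference of 0.70. Of all 14565 genes tested, 83.5% differed, 42.3% higher and 41.2% lower in H9, with a median of 0.003. With the trend removed, 79 pathway genes were higher and 55 lower, with a median of 0.41. Beside them, 5387 of all genes were then higher and 6924 lower, with a median of -0.157. A call is thus the usual outcome here and is not read as particular to the pathway. The FGF feedback genes SPRY4 (7.86 ± 0.095, 0.610 CPM in HEK293T and 141 in H9) and DUSP6 (7.71 ± 0.12, 0.493 and 100 CPM) were far higher in H9. EPHA1 was at 479 CPM in H9 and 0.0968 in HEK293T. TEK and IER3 had no read in the HEK293T controls and were at least 61.0-fold and 176-fold higher in H9 (floor of 3 counts over the group). The insulin receptor substrate IRS4 was lower in H9 (-7.04 ± 0.088, 156 CPM in HEK293T and 1.18 in H9) and IRS2 higher (2.04 ± 0.13). Of the ligands, FGF19 was higher (4.26 ± 0.29) and NRG2 lower (-2.77 ± 0.15) in H9, and the binding proteins IGFBP3 (5.91 ± 0.20) and IGFBP4 (5.23 ± 0.056) were higher. EGR1, at 2160 CPM in HEK293T controls under arsenite and 9.28 CPM in H9 controls, had a log2 difference of -7.86 ± 0.074.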

How the data were processed

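RNA was extracted with TRIzol and made into libraries with the TruSeq Stranded mRNA kit, per the labels' protocols. Reads were handled with cutadapt and STAR 2.5.2b on hg19, as the submitters' processing notes list. Each deposited file gives raw read counts for RefSeq accessions. How reads were counted, and with which strand setting, is not given in the sources used; an antisense partner may share a gene's counts. Reads assigned to no feature made up 14.95 to 20.84% of reads per library and were left out. Names came from RefSeq (18888 accessions) and GENCODE (223), and 194 had none.

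The test was edgeR 4.0.16 (R 4.3.3): filterByExpr (14565 genes kept), TMM scaling, 4 group means over 8 libraries with 4 residual degrees of freedom, robust quasi-likelihood F test (two-sided) and Benjamini-Hochberg adjustment over all genes. Calls needed an adjusted p under 0.05. SE is the log2 fold change over the square root of F. The scripts were tested on simulated counts. Levels per kilobase used the GENCODE length of the counted transcript. The trend was a natural spline (5 degrees of freedom each) of log2 CPM on transcript GC content and log2 length, entered as an offset per library. Replicate libraries differed beyond sampling noise (chi-square per degree of freedom 1.35 to 4.91), so none was a duplicate. The HEK293T controls differed most, at 4.91, and the other groups were at 1.35 to 1.80. Those 2 controls held 22844053 and 32318668 counts in genes and 15.59 and 17.68% of reads in no feature. Every HEK293T difference rests on that pair.

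The genes and the pathway and marker lists were chosen with earlier results of these data known. Named genes were all 10 genes, EIF2A and, per list, up to 4 called genes (2 between lines) with a mean of at least 1 CPM, the largest change and both knockdown libraries on one side of both controls. For KITLG, KIT and KDR the 3 genes with the nearest profile were added. A few listed genes are not reported by name but remain in the counts of their lists. Alternatives were other scalings, filters and tools (DESeq2 1.42.0, limma-voom in limma 3.58.1), only the libraries compared, the set number as a block, the trend removed, a stricter threshold and each library left out.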

Additional observations from a re-analysis of the deposited data

Results flagged for a closer look

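Some genes lay on one side of both controls in H9 with eIF2A shRNA and on the other side in HEK293T with eIF2A siRNA. These differences between the lines were not tested, and the lines also differ in arsenite and in the kind of knockdown. KDR differed by 2.91 on the log2 scale (1.20 in H9, -1.71 in HEK293T on few reads) and ERBB3 by 1.27 (0.81 and -0.46). Among the other receptor kinases the difference was 2.25 for EPHA3 (1.14 and -1.11), 2.09 for EPHA7 (1.73 and -0.36), 1.73 for ROR1 (1.30 and -0.43) and -0.65 for LMTK3 (-0.34 and 0.31). Among co-receptors it was 0.64 for NRP2 (0.37 and -0.27), 1.5 for GPC6 (1.26 and -0.24), -0.85 for SDC2 (-0.66 and 0.19) and -0.50 for SDC4 (-0.34 and 0.16). Among adaptors and feedback genes it was 2.10 for PIK3R1 (1.49 and -0.61), -0.35 for GRB2 (-0.18 and 0.17), -0.36 for SPRY2 (-0.12 and 0.24), 1.97 for NF1 (1.74 and -0.23) and 1.63 for RASA1 (1.37 and -0.27). Not all of these genes passed the test in both lines. In H9, EPHA3 was not called (6 and 5 against 9 and 20 reads, edgeR adjusted p = 0.0501). In HEK293T, EPHA7 (edgeR adjusted p = 0.167), ROR1 (0.105), GPC6 (0.121), NF1 and RASA1 were not called. After removal of the GC and length trend, the H9 values of KDR and ERBB3 were 0.62 and 0.59, and those of EPHA3 and NRP2 were 0.16 and 0.02. All 15 genes kept their opposite signs, but not all were then called. In H9, edgeR did not call EPHA3 (adjusted p = 0.84), NRP2 (0.81), PIK3R1 (0.13), EPHA7 (0.11) or GPC6 (0.059), and in HEK293T it did not call KDR (0.0517), among others. The genes were picked for their opposite directions, and the share of all genes with opposite directions was not counted.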

How the results depend on the processing

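With the GC and length trend removed, alone and with the replicate block, the H9 log2 fold change reversed for FGFR3 (0.048 and 0.047), FGF2 (-0.049 and -0.052), NRP1 (-0.010 and -0.009) and MYC (0.042 in both), and the difference of FGFR4 between the lines reversed (-0.115 and -0.116). Against 40 pathway genes called in HEK293T in the main fit, DESeq2 called 23, and 25 passed an adjusted p under 0.01. Over all genes these counts were 4182, 2742 and 2902. Leaving out 1 library gave 2 to 4 of the 10 genes called in HEK293T, 9 to 10 in H9 and 10 between the lines, and 29 to 41, 100 to 103 and 135 to 139 of the pathway genes. In each comparison, fewer of all genes were also called when any 1 of its libraries was left out. The total counts of calls under the remaining alternatives stayed within 1.5 times. Upper-quartile scaling left 9 of the 10 genes called in H9 (FGFR3 was not). KITLG had no value under the filter of at least 5 CPM. Same-numbered libraries showed no shared deviation: their deviations correlated at -0.02 in HEK293T and 0.01 in H9. The labels do not say what a set is, and this check cannot show whether sets were handled as pairs. With the replicate block 3847 genes were called in HEK293T (4182 without) and 10281 in H9 (10380), and 4 and 9 of the 10 genes. Low counts limit KITLG in H9 controls (7 and 4 reads) and KDR in HEK293T (10, 9, 6 and 0 reads).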
